A study of Homo sapiens with 6 samples.

Results

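The 9 genes described here encode the enzymes that carry lanosterol on to cholesterol, and they were taken as every probe whose array symbol was LSS, CYP51A1, TM7SF2, SC4MOL, NSDHL, HSD17B7, EBP, SC5DL or DHCR7. SC4MOL is now called MSMO1 and SC5DL is now called SC5D. The rule found 14 of the 47231 probes on the array, and all 9 of its 31334 gene symbols. RNA came from U2OS cells, a human osteosarcoma line, and was hybridised to 6 Illumina arrays. The first group of 3 samples carried a control shRNA, and the labels also describe these cells as parental. The second group of 3 samples carried an shRNA against TUSC4 as a stable knockdown. TUSC4, now called NPRL2, encodes part of the GATOR1 complex, which holds back the growth kinase mTORC1 when amino acids run short. Clone number, shRNA sequence and separate cultures are not stated in the sources used here, so every p-value here rests on the scatter among these samples, which can be purely technical.

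Cholesterol is built in the endoplasmic reticulum from acetyl-CoA, first to squalene and then through the ring-shaped sterol lanosterol. The enzymes after lanosterol strip methyl groups from the ring, move a double bond and reduce others, and their genes are classic targets of SREBP2, a transcription factor that is released from the membrane when sterols are low. When sterols are plentiful, INSIG proteins hold the SREBP2 precursor and its escort SCAP in place, and the pathway genes are transcribed less.

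The 6 arrays had between 20378 and 21485 probes above the estimated background, and having 6 limits how precise any value can be. Arrays of 1 group correlated at 0.991 to 0.996 over the kept probes, and arrays of different groups at 0.979 to 0.984. The arrays sat in adjacent places on 1 BeadChip with the groups side by side, so chip position and group cannot be told apart. The TUSC4 probe read 1105, 943 and 977 in the control samples and 366, 345 and 481 in the knockdown samples, a log2 fold change of -1.18 ± 0.10 (SE, limma adjusted p = 9.16e-07). Of 10 mesenchymal and osteoblast markers, COL1A2, SP7 and IBSP were above background on fewer than 3 arrays. COL1A1 and RUNX2 were lower (-0.96 and -0.68) and SPP1 was higher (0.98). The summed signal of the 10 was 15454 to 16006 in control and 13992 to 16323 in knockdown samples, most of it from VIM. Of 12 markers of other cell types, those above background on no array included CDH1, KRT5, KRT19, CD3E, CDH5 and GFAP. The summed signal of the 12 was 1502 to 1531 in control and 1361 to 1507 in knockdown samples. EPCAM, an epithelial marker, and ALB, a liver marker, were above background on all 6 arrays, with log2 fold changes of 0.02 and -0.20. CD14, PTPRC and PECAM1 were above it on some arrays.

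By their brightest probes, most of the late sterol genes were lower in the knockdown. All 9 had a probe above background and were tested, and 6 of them fell, 1 rose and 2 did not pass, at an adjusted p under 0.05. Across all 15300 genes tested, 13.6% fell and 13.3% rose. The median log2 fold change was -0.52 for the 9 genes and 0.00 for all genes. When the probes of a gene were averaged, 4 of the 9 fell and their median was -0.21. The 6 that fell were LSS, SC4MOL, NSDHL, EBP, SC5DL and DHCR7, with log2 fold changes from -0.37 to -0.61, which leaves 65.5% to 77.6% of the control intensity with the background offset included. For each of the 6, every knockdown sample lay below every control sample after normalization, where 20.5% of all genes were separated in that direction. The same held for the 6 in the deposited signal, but the share of all genes separated there was not counted. Without normalization the median log2 fold change of all genes was -0.16, so the separation in deposited signal is not further support. The gene that rose was HSD17B7. As RNA was pooled over all cells of a sample, a change in every cell and a change in the share of cells that express a gene cannot be told apart.

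**Figure D1:**
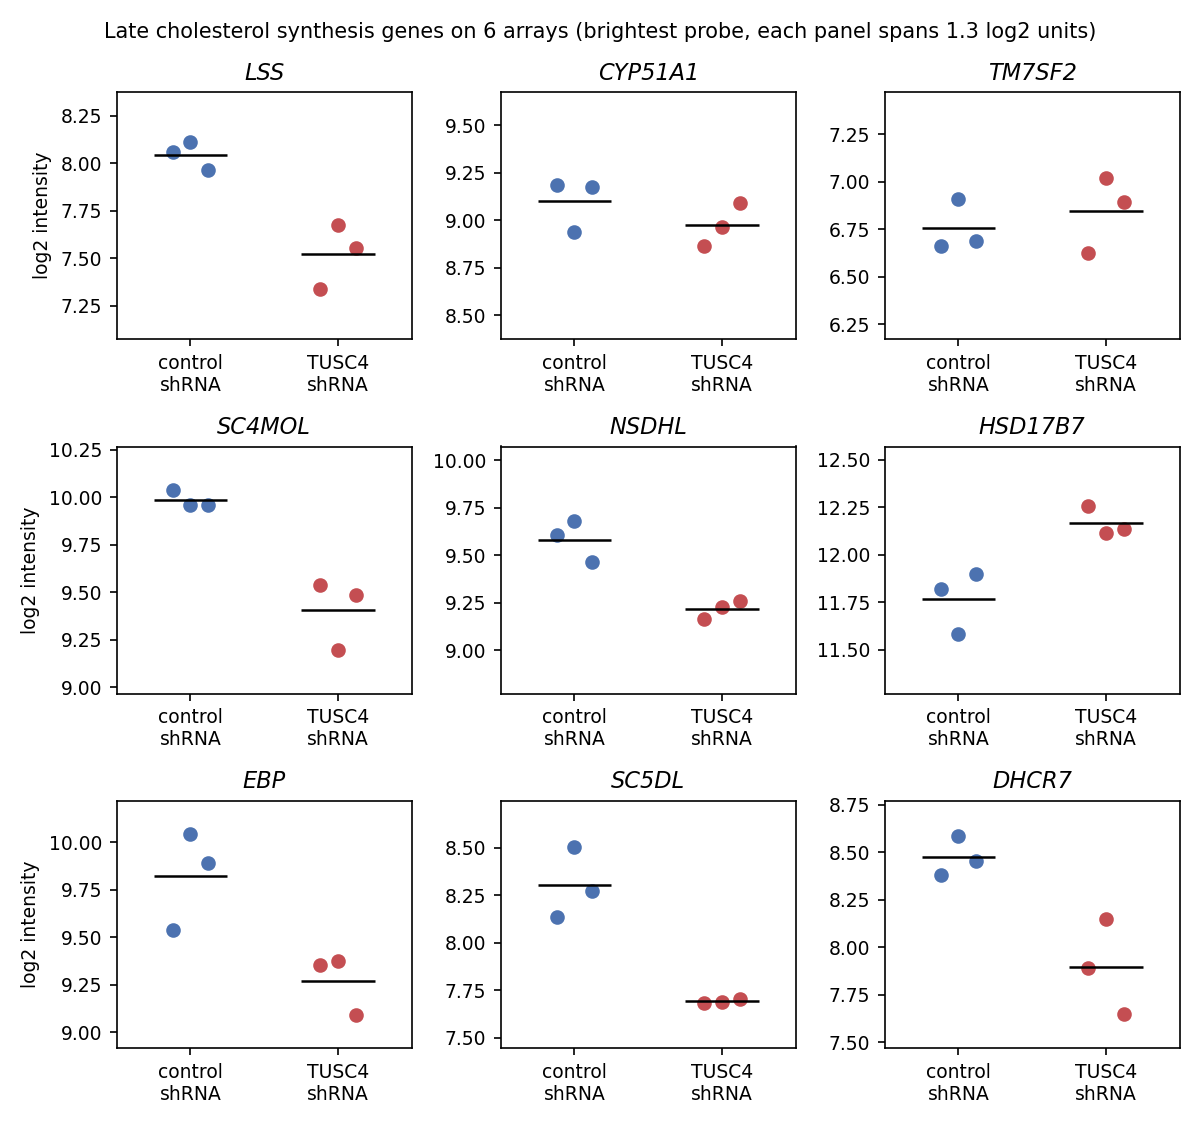
Normalized log2 intensity of the brightest probe of each of the 9 genes (vertical axis) in the 3 control shRNA samples (blue) and the 3 TUSC4 shRNA samples (red), with the group mean as a line. The groups are separate and lower in the knockdown for LSS, SC4MOL, NSDHL, EBP, SC5DL and DHCR7, separate and higher for HSD17B7, and overlapping for CYP51A1 and TM7SF2.

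The first enzymes close the sterol ring and clear its carbon 14. LSS encodes lanosterol synthase, which folds squalene epoxide into lanosterol. Its brightest probe had a signal of 373, 327 and 308 in the control samples and 192, 215 and 234 in the knockdown samples. All knockdown values were below all control values, and LSS had a log2 fold change of -0.52 ± 0.11 (SE, limma adjusted p = 0.00176). The other LSS probes were dim. The first of them read 119 to 138 in control and 117 to 134 in knockdown samples, was above background on 2 arrays of each group and gave 0.10 ± 0.11 (SE, limma adjusted p = 0.580). The last was above background on 1 of the 6 arrays and was not tested.

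CYP51A1 encodes the cytochrome P450 that removes the methyl group at carbon 14 of lanosterol. Its signal was 766, 547 and 651 in the control samples and 456, 454 and 594 in the knockdown samples. The groups overlapped, through the lowest control and the highest knockdown sample. The log2 difference came to -0.13 ± 0.10 (SE, limma adjusted p = 0.412), with a 95% interval from -0.35 to 0.10. The estimate for LSS by its brightest probe lies outside this interval, but the LSS interval of -0.75 to -0.30 overlaps it. The difference between these genes was not tested.

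TM7SF2 encodes a sterol reductase that acts on the double bond left at carbon 14. Its signal was low on every array, at 161, 169 and 152 in the control samples and 138, 157 and 168 in the knockdown samples. The groups overlapped, and the log2 fold change of 0.09 ± 0.12 (SE, limma adjusted p = 0.608) had a 95% interval from -0.15 to 0.34. LBR, the lamin B receptor, carries the same reductase activity and stood at -0.19 ± 0.17 (SE, limma adjusted p = 0.452).

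The next enzymes remove the methyl groups at carbon 4, and they did not move as one. SC4MOL encodes the methyl sterol oxidase that starts the removal. Its brightest probe read 1334, 1059.7 and 1072 in the control samples and 697, 526 and 768 in the knockdown samples. All knockdown samples were lower, and the difference by this probe was -0.58 ± 0.11 on the log2 scale (SE, limma adjusted p = 0.000845). The dimmer SC4MOL probes did not pass. The middle probe read 401, 493 and 363 against 331, 280.02 and 330.05, with a log2 fold change of -0.19 ± 0.14 (SE, limma adjusted p = 0.357). The dimmest read 179.7, 218 and 207 against 183, 183 and 210.4, with 0.14 ± 0.12 (SE, limma adjusted p = 0.475). The SC4MOL call therefore belongs to 1 of 3 probes. Averaging the SC4MOL probes gave -0.21, which did not pass (limma adjusted p = 0.153). Averaging those of LSS also gave -0.21 (limma adjusted p = 0.137).

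NSDHL encodes the dehydrogenase that takes the oxidised carbon off as carbon dioxide. Its signal was 1010.3, 887 and 782 in the control samples and 547, 537 and 665 in the knockdown samples. The groups were separate, with a log2 fold change of -0.37 ± 0.10 (SE, limma adjusted p = 0.0110), the smallest fall among the 6 with the settings used. Leaving out control replicate 2 gave -0.32, just outside the threshold (limma adjusted p = 0.0503).

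HSD17B7 encodes the reductase that completes each round of carbon 4 removal and that also acts on estrone. Its signal was 4212, 3153 and 3857 in the control samples and 4357, 3854 and 5068 in the knockdown samples. The deposited signals overlapped, while the normalized values did not, with 11.58 to 11.90 in control and 12.12 to 12.26 in knockdown samples on the log2 scale. HSD17B7 rose by 0.40 ± 0.11 (SE, limma adjusted p = 0.00990). HSD17B7 missed the threshold at 0.32 under median scaling (limma adjusted p = 0.0607). It also missed it at 0.25 when arrays were not normalized (limma adjusted p = 0.228) and at 0.31 when control replicate 2 was left out (limma adjusted p = 0.0520). HSD17B7 has 1 probe here and a close pseudogene copy, HSD17B7P2, so which copy the signal came from is uncertain. The probe assigned to HSD17B7P2 read 136 to 144 in control and 126 to 139 in knockdown samples, with a log2 fold change of 0.01 ± 0.09 (SE, limma adjusted p = 0.972).

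The last enzymes shift a double bond of the ring, add another and then reduce the shifted one. All 3 of their genes fell, where 13.6% of all genes fell. Differences between the steps of the pathway were not tested. EBP encodes the isomerase that moves the double bond from carbon 8 to carbon 7. Its signal was 961, 1114 and 1025 in the control samples and 619.9, 590.2 and 593 in the knockdown samples. The groups were well apart in deposited signal but closer once normalized. The normalized control samples lay at 9.54, 10.04 and 9.89 on the log2 scale, against 9.35, 9.37 and 9.09 in knockdown. EBP had a log2 fold change of -0.55 ± 0.13 (SE, limma adjusted p = 0.00437). SC5DL encodes the desaturase that adds the double bond at carbon 5. Its signal was 392, 415 and 371 in the control samples and 231, 217 and 254 in the knockdown samples. After normalization the knockdown samples lay at 7.69, 7.69 and 7.71 on the log2 scale, against 8.14, 8.51 and 8.27 in control. Its log2 fold change of -0.61 ± 0.11 (SE, limma adjusted p = 0.000545) was the largest fall of the 9 by brightest probe with the settings used. Other genes came first with other settings. SC4MOL did with the authors' values (-0.53 against -0.48), without background correction, without control replicate 2 and without knockdown replicate 1. DHCR7 did with averaged probes (-0.63 against -0.61) and without knockdown replicate 2, and EBP did without control replicate 1.

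DHCR7 encodes the reductase of the final step of one route to cholesterol, whose substrate is also the precursor of vitamin D. Its brighter probe read 457, 439 and 413 in the control samples and 258, 279.9 and 247 in the knockdown samples. The other probe read 377, 378 and 333 against 199, 213 and 216. Both probes were lower in all knockdown samples, with log2 fold changes of -0.58 ± 0.12 and -0.68 ± 0.11 (SE, limma adjusted p = 0.00232 and 0.000298 over all probes). Of the 3 genes with more than 1 probe, LSS, SC4MOL and DHCR7, only DHCR7 had more than 1 that passed. Counted by probe, 13 of the 14 entered the fit over all 20657 kept probes, and 7 fell, 1 rose and 5 did not pass, where 12.5% of all kept probes fell.

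**Figure D2:**
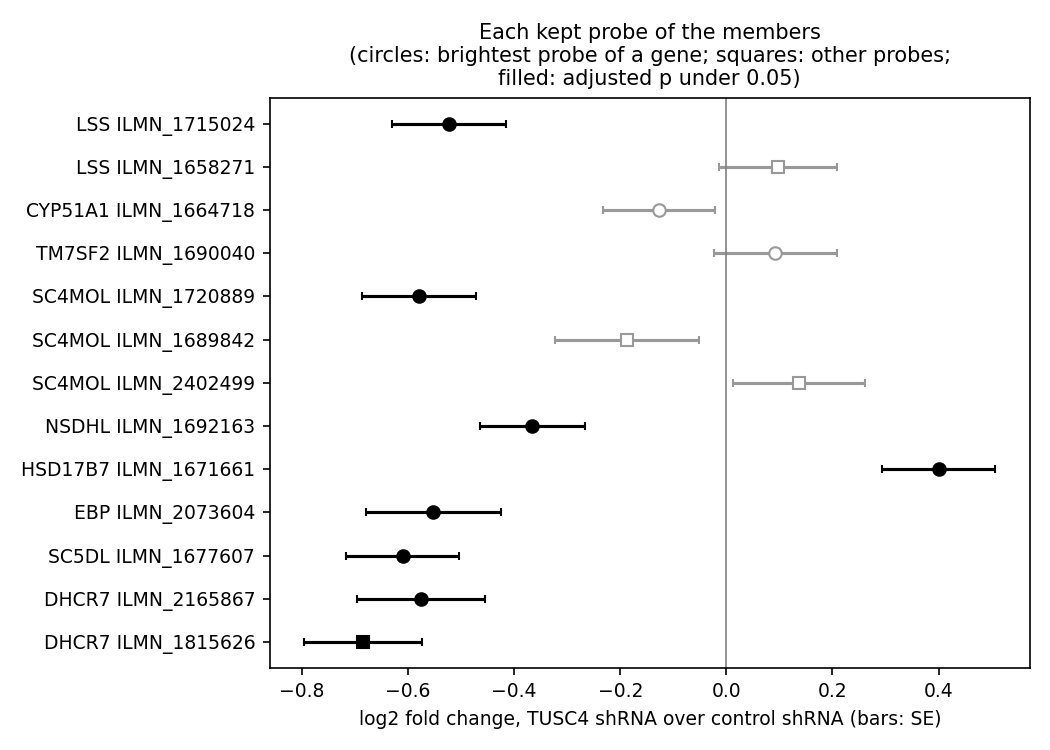
Log2 fold change of TUSC4 shRNA over control shRNA (horizontal axis, bars SE) for each of the 13 kept probes of the 9 genes, with n = 3 samples a group. Filled points passed an adjusted p under 0.05, circles mark the brightest probe of a gene and squares the other probes. The DHCR7 probes fall together at -0.58 and -0.68, while those of LSS and SC4MOL lie apart.

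Genes of the neighbouring steps were described in the same way. Of 10 genes that accompany the late steps, 9 were measured, 3 of them fell, none rose and the median was -0.19, where 13.6% of all genes fell and 13.3% rose. Those that fell included PGRMC1, a membrane protein that binds cytochromes P450 such as CYP51A1 (-0.45 ± 0.10, SE), and EBPL, a relative of EBP without known isomerase activity (-0.39 ± 0.10, SE). The call of EBPL was lost without control replicate 2 (limma adjusted p = 0.0595). POR and CYB5R3, which hand electrons to these enzymes, had log2 fold changes of -0.02 and 0.00 and did not pass.

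Upstream, 6 of the 11 genes from acetyl-CoA to squalene epoxide fell and none rose, with a median log2 fold change of -0.32. Across all genes, 13.6% fell and 13.3% rose. Among the 6, those with the smallest p included SQLE (-1.03 ± 0.10), FDFT1 (-0.78 ± 0.09) and HMGCS1 (-0.76 ± 0.10, all SE). SQLE makes the squalene epoxide that LSS closes, FDFT1 makes squalene, and HMGCS1 acts at the start of the mevalonate pathway. HMGCS1 read 1063, 1066 and 988 in control and 532, 451 and 616 in knockdown samples. All knockdown values were below all control values.

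**Figure D3:**
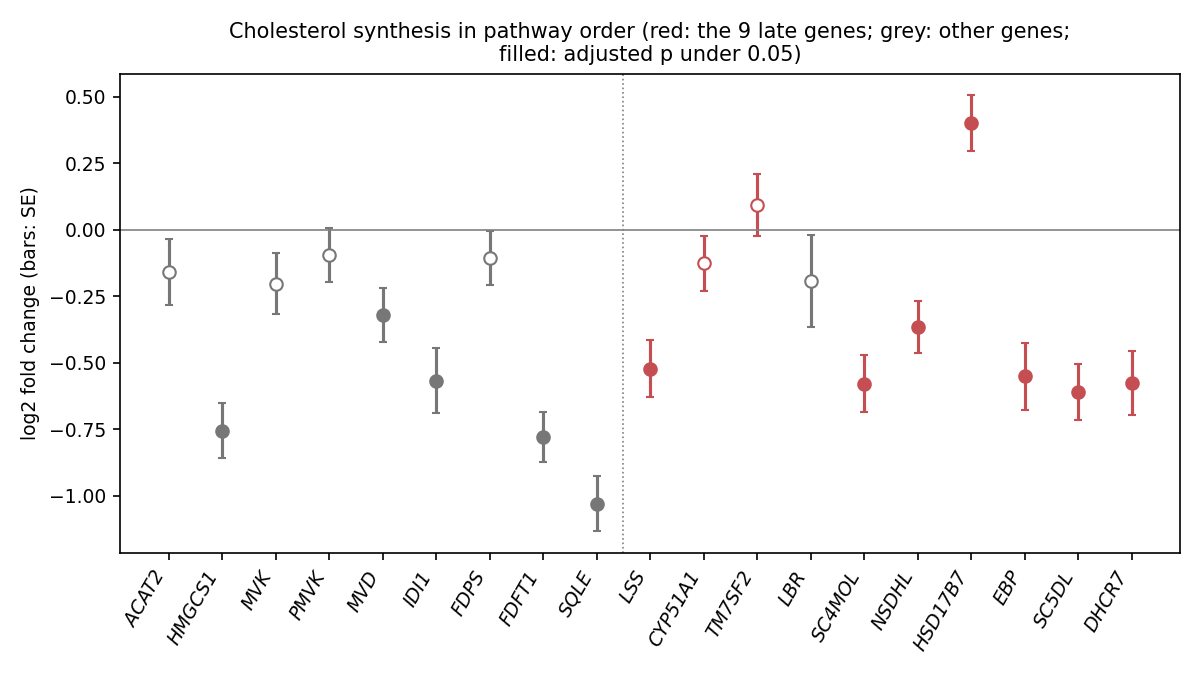
Log2 fold change of TUSC4 shRNA over control shRNA (vertical axis, bars SE, n = 3 samples a group) for cholesterol synthesis genes in one usual order of the pathway, with the 9 late genes in red to the right of the dotted line, other genes in grey and filled points past an adjusted p under 0.05. The late genes other than TM7SF2 and HSD17B7 lie below 0, between -0.13 and -0.61, and SQLE is lowest at -1.03.

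Regulators and other targets of the same system were described with 3 more lists. Of 12 measured genes of SREBP control and sterol uptake, 5 fell and 1 rose, with a median of -0.04. Across all genes, 13.6% fell and 13.3% rose. INSIG1, which holds SCAP in the endoplasmic reticulum and is itself an SREBP target, stood at -1.40 ± 0.11 on the log2 scale (SE). INSIG2, its relative, had -0.47 ± 0.10 and NPC1, which moves cholesterol out of lysosomes, -0.39 ± 0.10 (both SE). The NPC1 call was lost without control replicate 3 (limma adjusted p = 0.0649). MBTPS1, the protease that makes the first cut in SREBP, was higher by 0.45 ± 0.10 (SE), but it did not pass under median scaling (0.22, limma adjusted p = 0.172) or when arrays were not normalized (0.17, limma adjusted p = 0.414). SREBF1 and SREBF2, the genes of the SREBP factors, had log2 fold changes of 0.05 ± 0.12 and -0.01 ± 0.11 (SE, limma adjusted p = 0.797 and 0.961). The SREBF2 probe was dim, at a mean of 6.47 on the log2 scale in control samples.

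Among 8 measured genes of LXR targets and sterol export or storage, none fell and 2 rose, with a median of 0.07, which is near the shares of all genes that fell (13.6%) and rose (13.3%). LXR is the receptor that answers to excess sterol. ABCA1, a cholesterol exporter, read 115, 111 and 114 in control samples, where it was not above background, and 138, 129 and 148 in the knockdown samples. It was at least 1.22-fold higher with the background correction and offset used. The ABCA1 probe was kept only through the knockdown samples, where it is high, so its place among the 2 that rose is not separate support. ABCG1, another exporter, was higher by 0.42 ± 0.11 (SE, limma adjusted p = 0.00798), but did not pass under median scaling (0.22, limma adjusted p = 0.200) or when arrays were not normalized (0.17, limma adjusted p = 0.411). Of 10 fatty acid genes under SREBP control, 4 fell and 1 rose, with a median of -0.26. The desaturase genes SCD and FADS1 had log2 fold changes of -1.03 ± 0.13 and -0.81 ± 0.10 (both SE). ACSS2, which makes acetyl-CoA from acetate, had -0.34 ± 0.09 and ACSL3, which activates fatty acids, -0.30 ± 0.10 (both SE). ME1, which makes NADPH, was higher by 0.30 ± 0.10 (SE). The ACSS2 call was lost without control replicate 1 (limma adjusted p = 0.0514), that of ACSL3 in 8 of the 16 alternatives and that of ME1 in 9.

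The promoters of the late genes are shown because most of these genes fell together. The 250 bases before each annotated start site were read from RefSeq (GRCh38.p14), which held all 9 genes with 11 start sites. SREBP factors commonly act beside NF-Y, which binds the CCAAT box, and Sp1, which binds the GC box. A CCAAT box, read as CCAAT on either strand, lay before a start site of 8 of the 9 genes. Counted by window, it lay in 9 of their 11 windows and in 32.0% of all 35116 promoter windows of that length. CYP51A1 was the gene without a match. Its window overlaps the RefSeq span of CYP51A1 itself. The DHCR7 window that held the box overlaps the span of DHCR7 in the same way. TM7SF2 and HSD17B7, which did not fall, held the box as well. Below are the largest fall by brightest probe (SC5DL), the first carbon 4 enzyme (SC4MOL), the gene with most boxes (NSDHL) and the gene that rose (HSD17B7), each 5′ to 3′ on the gene's strand, with capitals marking CCAAT or its reverse complement ATTGG:
SC5DL: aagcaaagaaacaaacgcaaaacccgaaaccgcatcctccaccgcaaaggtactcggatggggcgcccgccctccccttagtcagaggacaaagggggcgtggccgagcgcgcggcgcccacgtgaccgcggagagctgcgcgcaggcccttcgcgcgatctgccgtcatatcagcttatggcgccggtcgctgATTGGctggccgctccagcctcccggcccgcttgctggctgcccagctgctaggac
SC4MOL: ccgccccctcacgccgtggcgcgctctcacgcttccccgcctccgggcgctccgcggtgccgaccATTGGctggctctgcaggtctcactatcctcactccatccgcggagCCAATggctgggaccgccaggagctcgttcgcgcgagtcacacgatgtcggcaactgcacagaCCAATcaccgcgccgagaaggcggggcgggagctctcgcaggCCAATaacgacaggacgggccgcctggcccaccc
NSDHL: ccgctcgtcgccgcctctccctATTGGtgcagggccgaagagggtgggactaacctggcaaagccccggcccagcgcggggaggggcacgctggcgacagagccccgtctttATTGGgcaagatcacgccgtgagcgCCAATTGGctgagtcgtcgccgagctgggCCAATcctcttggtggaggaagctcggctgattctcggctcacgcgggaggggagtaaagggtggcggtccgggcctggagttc
HSD17B7: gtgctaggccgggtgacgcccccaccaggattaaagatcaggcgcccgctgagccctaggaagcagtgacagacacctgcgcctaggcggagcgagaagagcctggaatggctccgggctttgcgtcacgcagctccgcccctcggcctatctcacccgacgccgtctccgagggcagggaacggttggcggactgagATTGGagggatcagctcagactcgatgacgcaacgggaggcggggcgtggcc

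The SC5DL sequence is chr11:121292521-121292770 on the plus strand and holds 1 box, whose first base is at -56 from the start site. The SC4MOL sequence is chr4:165327419-165327668 on the plus strand and holds 4. The NSDHL sequence is chrX:152830813-152831062 on the plus strand and holds 5, of which a pair overlap as CCAATTGG. The HSD17B7 sequence is chr1:162790452-162790701 on the plus strand and holds 1 box, at -52. EBP held 3 boxes, DHCR7 2 at the first of its start sites and none at the second, and LSS and TM7SF2 1 each.

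Other motifs were searched on both strands, with matches allowed to overlap. The GC box GGGCGG lay before a start site of 8 of the 9 genes, all but NSDHL. It was in 9 of their 11 windows and in 42.6% of all windows. The sterol response element read as TCACNCCAC was in none of the 11 windows of the 9 genes and in 0.883% of all windows. The E-box CACGTG was before SC5DL alone among the 9, in 2 of the 11 windows, and in 6.34% of all windows. The spellings TCACCCCAC, TCANNCCAC, CACCCCAC and TCACGTGA matched none of the 9 genes, in 0.362%, 3.14%, 2.43% and 0.854% of all windows. TCACNCNAC matched HSD17B7 and CACNCCAC matched SC5DL, each in 1 of the 11 windows, and in 2.02% and 4.87% of all windows. These spellings overlap one another, and a window without a match lacks only these letters.

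**Figure D4:**
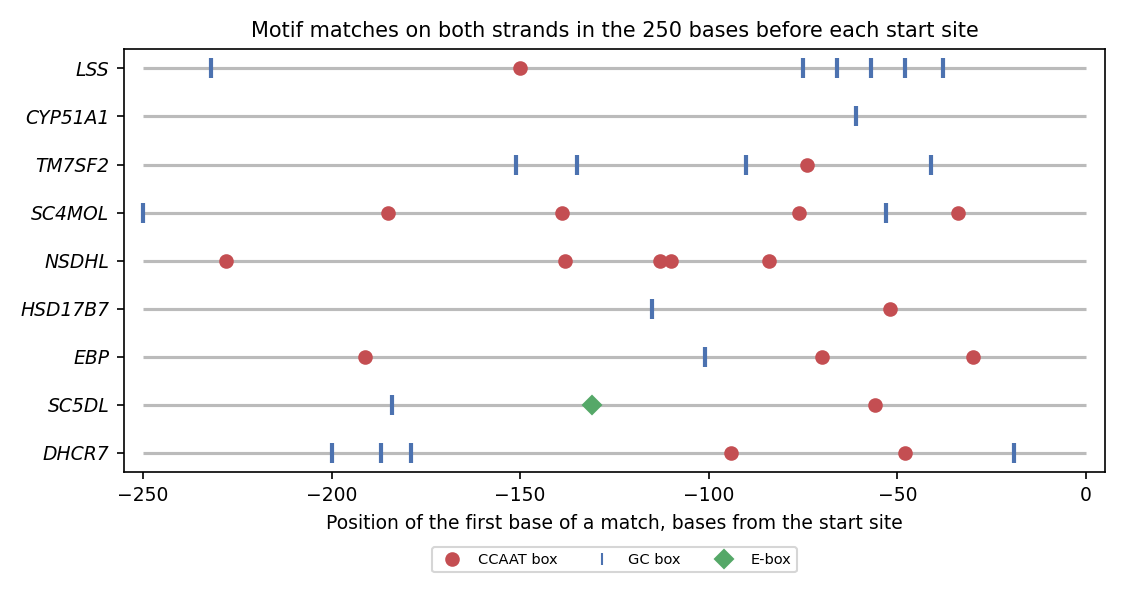
Matches to the CCAAT box (red circles), the GC box (blue ticks) and the E-box (green diamond) on both strands in the 250 bases before the first listed start site of each of the 9 genes, placed by the distance of the first base from the start site (horizontal axis). CYP51A1 has no CCAAT box, NSDHL has 5 and no GC box, and SC5DL has the E-box.

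The chromosomal surroundings of the 9 genes, a comparison chosen after seeing the data, were described through the 50 nearest measured genes of each, to be read against the 13.6% of all genes that fell and the 13.3% that rose. Their median log2 fold changes ran from -0.16 for EBP, where 18 of the 50 fell, to 0.20 for CYP51A1, where 15 rose. Around SC4MOL the median was 0.19 and 21 neighbours rose, while SC4MOL itself fell. Around SC5DL the median was -0.11 and 14 neighbours fell, and around HSD17B7 it was -0.10 and 13 fell. Less its neighbours' median, the value was -0.77 for SC4MOL, -0.50 for SC5DL, -0.40 for EBP, -0.32 for CYP51A1 and 0.50 for HSD17B7, and the direction was kept for all 9.

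Over the 6 arrays the mean of the 9 genes, each centred on its own mean, was 0.11, 0.21 and 0.15 in the control samples and -0.19, -0.11 and -0.17 in the knockdown samples on the log2 scale. All control samples lay above and all knockdown samples below the mean, and control replicate 2 was highest. NSDHL lay nearest to this profile among the 9, with a root mean square difference of 0.07, and HSD17B7 farthest at 0.38. The 5 genes outside the 9 that lay nearest were NCBP2, ASF1B, DDX39, NSMCE2 and STOML2, with differences of 0.02 to 0.03. With 2 groups and 6 arrays many genes share such a profile, and NSDHL ranked 244 of the 15300.

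The choice of scaling and of probes moved the sizes. Median scaling gave 3472 lower and 760 higher genes overall and no normalization 3516 and 385, against 2088 and 2035 with the settings used. The median of all genes was then -0.11 and -0.16, and that of the 9 late genes -0.72 and -0.77, which is -0.61 relative to all genes in both cases. SC5DL, DHCR7 and EBP passed in all 16 alternatives, with log2 fold changes from -0.87 to -0.48, from -0.85 to -0.45 and from -0.82 to -0.44. SC5DL and EBP have no further probe, so averaging probes could not change their values. CYP51A1 passed in none, with a lowest limma adjusted p of 0.0594, and its value ranged from -0.41 to -0.07. TM7SF2 ranged from -0.05 to 0.21 and also passed in none.

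**Figure D5:**
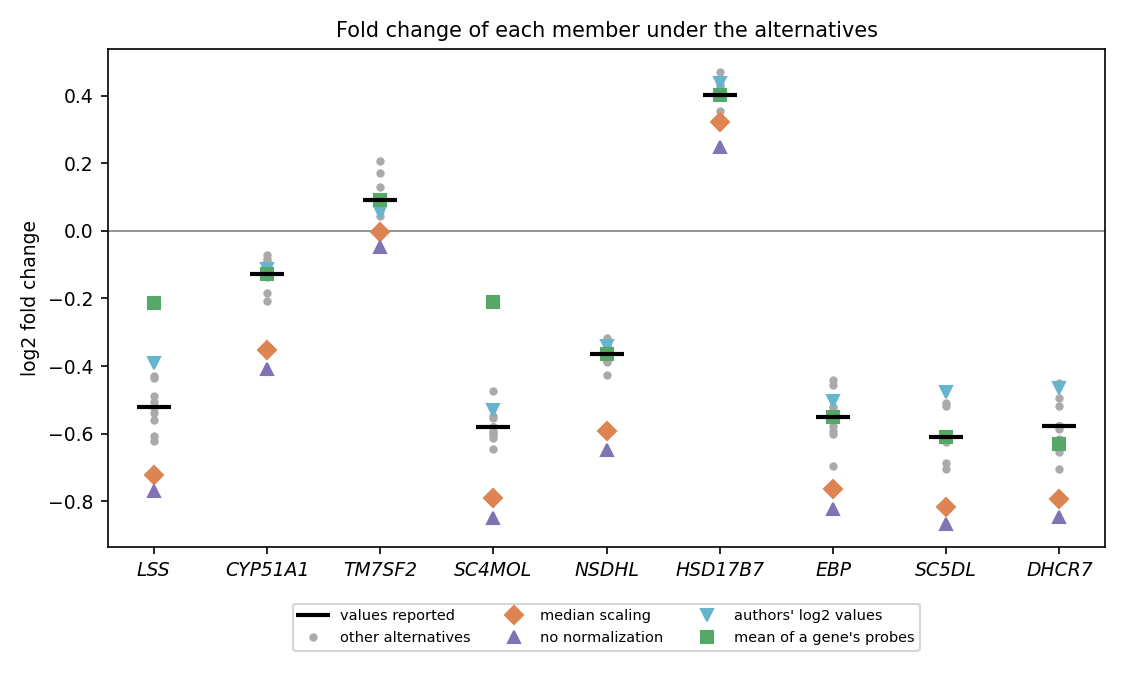
Log2 fold change of each of the 9 genes (vertical axis) with the settings used (black bar) and under the 16 alternatives (symbols as in the legend). SC5DL, DHCR7 and EBP stay at or below -0.44, LSS and SC4MOL rise to -0.21 with the mean of their probes, and TM7SF2 crosses 0. SC5DL and EBP have no further probe to average.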

How the data were processed

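Biotin-labelled RNA of 3 samples a group was measured on 6 Illumina arrays. The deposited intensity is the average bead signal of each probe, not normalized between arrays, per the file headers. The scanner software was BeadStudio, per the submitters' processing notes, and its version was not given. The authors' log2 values of the same arrays, which share 1 distribution with a median of 6.89, were an alternative, and their centring and offset are unknown.

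The signal was corrected with normexp (offset 50), quantile normalized and put on the log2 scale. The offset shrinks fold changes of dim probes. Background was estimated from the mode of each array's log2 signal (bandwidth 0.05), and the 20657 probes above it (p under 0.05 on 3 or more of the 6 arrays) were kept. Each of 15300 genes was represented by its brightest kept probe, and all kept probes were also fitted on their own. The groups were compared with limma 3.58.1 (R 4.3.3), with Benjamini-Hochberg adjustment over the whole table and a threshold of 0.05. The script was tested on simulated data.

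The members and lists were chosen with earlier results of these data known. Named genes are the 9, TUSC4, up to 4 called genes per list and direction with the smallest p, and the 5 nearest profiles. LBR, POR, CYB5R3, SREBF1, SREBF2, HSD17B7P2 and the marker genes were named after their values were seen. Some list members count in the totals but are not reported here by name. Replicate numbers are shared by the groups. The deviations of same-numbered samples correlated at 0.07, 0.08 and -0.09, so the numbers were not taken as pairs.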

Additional observations from a re-analysis of the deposited data

How the results depend on the processing

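The count of late sterol genes that fell was 6 with the settings used, 6 in 14 of the 16 alternatives, 4 when the probes of a gene were averaged and 5 without control replicate 2. The count that rose was 1 with the settings used and 0 with median scaling, without normalization and without control replicate 2, so leaving out 1 replicate gave 0 to 1. The median log2 fold change of the 9 genes was -0.43 without background correction, -0.58 with an offset of 16, -0.72 with median scaling, -0.39 from the authors' values, -0.77 without normalization, -0.21 when the probes of a gene were averaged and between -0.52 and -0.43 when 1 replicate was left out. TM7SF2 turned to -0.0044 with median scaling and -0.046 without normalization. Genes accompanying the late steps that fell numbered 5 without normalization against 3. In the list of LXR targets 1 gene fell with median scaling and 1 without normalization, against 0. Fatty acid genes that fell numbered 2 to 5 when 1 replicate was left out, with 2 without control replicate 1. With the replicate number as a block 6 late genes fell and 1 rose, their median stayed at -0.52, and no call of the 9 changed, while ACSL3 lost its call. Dim probes, such as those of TM7SF2 and ABCA1 and the lesser LSS probes, lie near background, which limits what they can show.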
